A study of Mus musculus with 10 samples.

Results

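Metalloproteinases and their inhibitors were followed as 55 genes among the 15078 genes of a mouse RNA sequencing table. They were taken by symbol alone, as every gene named Mmp, Adam, Adamts, Adamtsl or Timp with a number, and comprised 16 Mmp, 13 Adam, 17 Adamts, 5 Adamtsl and 4 Timp genes. Expression was measured in 10 libraries of stromal cells sorted from mouse bones as CD45-Ter119-CD31-CD51+CD200+, in 3 groups. BM-MSCs (bone marrow mesenchymal stem cells, 3 libraries) and P-SSCs (periosteal skeletal stem cells, 3 libraries) came from wild-type mice, labelled as hosts at steady state with no treatment, and were re-analysed from an earlier series. Graft BM-MSCs (4 libraries) were Tomato+ cells from the marrow of femurs that had been placed under the skin of wild-type recipients 5 months before. The donor femurs carried a tamoxifen-inducible Cre under the periostin (Postn) promoter and a Rosa26 tdTomato reporter, and tamoxifen was given to the recipients after transplantation. This driver labels cells that express Postn when tamoxifen is given, so Tomato traces that expression and not a cell type as such. RNA of 2 mice was combined in some libraries, and the replicates are stated to hold RNA of distinct mice. Whether a BM-MSC and a P-SSC library came from the same mouse is not given in the sources used here. The labels give no age. The comparisons asked how marrow and periosteal stroma differ at steady state, and where the Tomato+ marrow stroma of the graft stands between them.

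Matrix metalloproteinases (MMPs) are zinc-dependent enzymes that cleave collagens, gelatin, proteoglycans and other proteins outside the cell, and most are secreted as inactive precursors. ADAM proteins sit in the membrane, where the active ones release the outer parts of other membrane proteins, and ADAMTS proteins are secreted relatives that trim procollagens or cut proteoglycans such as aggrecan and versican. ADAMTSL proteins share the accessory domains of ADAMTS enzymes but lack the protease domain, and TIMPs are secreted inhibitors that block the active site of these enzymes. In bone, collagenase and gelatinase activity serves remodelling of the mineralized matrix and entry of cells and vessels, and membrane shedding sets the amount of several niche proteins on stromal cells.

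5 of the secreted Mmp genes lay on the same strand within a stretch of chromosome 9 (GRCm38), at 7272514 to 7283331 (Mmp13), 7445822 to 7455975 (Mmp3), 7502352 to 7510240 (Mmp10), 7558456 to 7568485 (Mmp8) and 7571396 to 7581885 (Mmp27). These neighbours moved in opposite directions between the groups (values below the sequences), so the 250 bases before each start are shown, from the RefSeq promoter set of GRCm38.p6, 5′ to 3′ on the plus strand, with matches to 3 motifs in capitals.
Mmp13: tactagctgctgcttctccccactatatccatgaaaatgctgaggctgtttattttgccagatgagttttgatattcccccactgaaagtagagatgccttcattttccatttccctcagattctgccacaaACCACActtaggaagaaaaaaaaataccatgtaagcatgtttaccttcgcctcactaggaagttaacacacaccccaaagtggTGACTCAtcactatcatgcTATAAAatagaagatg
Mmp3: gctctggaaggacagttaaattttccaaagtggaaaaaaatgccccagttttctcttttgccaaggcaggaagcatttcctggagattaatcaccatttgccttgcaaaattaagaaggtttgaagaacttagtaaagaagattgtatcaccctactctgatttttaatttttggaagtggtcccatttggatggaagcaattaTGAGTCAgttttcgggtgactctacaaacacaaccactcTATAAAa
Mmp10: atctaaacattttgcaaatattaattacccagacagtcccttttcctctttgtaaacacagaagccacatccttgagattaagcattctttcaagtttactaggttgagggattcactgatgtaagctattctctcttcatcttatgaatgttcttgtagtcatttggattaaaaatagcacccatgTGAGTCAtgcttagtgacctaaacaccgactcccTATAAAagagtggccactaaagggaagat
Mmp8: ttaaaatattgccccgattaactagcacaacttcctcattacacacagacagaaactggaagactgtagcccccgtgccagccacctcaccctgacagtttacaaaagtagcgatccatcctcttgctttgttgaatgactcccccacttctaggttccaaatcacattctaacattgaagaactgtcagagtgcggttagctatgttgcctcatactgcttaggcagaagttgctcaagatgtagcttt
Mmp27: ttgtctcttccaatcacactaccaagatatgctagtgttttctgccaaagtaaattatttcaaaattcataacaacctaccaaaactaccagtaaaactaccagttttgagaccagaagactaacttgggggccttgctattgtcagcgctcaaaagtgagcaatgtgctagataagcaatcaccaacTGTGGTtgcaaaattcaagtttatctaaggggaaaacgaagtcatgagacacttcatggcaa
The windows were chr9:7272264-7272513, chr9:7445572-7445821, chr9:7502092-7502341, chr9:7558179-7558428 and chr9:7571146-7571395 in that order. The letters TGAGTCA or TGACTCA (AP-1, the same site read on either strand) were present before Mmp13, Mmp3 and Mmp10, starting 35, 46 and 63 bases before the gene. The letters TGTGGT or ACCACA (RUNX, both strands) were present before Mmp13 and Mmp27, starting 118 and 62 bases before the gene, and TATAAA (searched on the gene's strand only) before Mmp13, Mmp3 and Mmp10. Mmp8 held none of these letters. No motif overlapped another in these windows. Among 32851 promoter windows of the same length, 4.46% held the AP-1 letters, 14% the RUNX letters and 7.59% the TATA letters. For Mmp10 and Mmp8 the RefSeq start lay upstream of the start of the gene model given above. A match is a description of the letters and not a bound site.

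Library depth and composition differed between groups. Total reads were 17324336 to 19408164 in BM-MSC, 18181427 to 20206662 in P-SSC and 15415421 to 25223295 in graft BM-MSC libraries, while 12677 to 13341, 12217 to 13068 and 9308 to 11674 genes were detected. In the 4 graft libraries and in P-SSC replicate 4, genes of over 65% GC stood above genes of 50% to 60% GC by 1.58 to 2.90 on the log2 scale, and in the other 5 libraries this difference was -2.16 to -1.57. Library type here means only the sign of this difference, and is not a batch or kit named in the labels used here. All graft libraries shared a library type with P-SSC replicate 4 and none with BM-MSC. For graft against BM-MSC, library type and group therefore cannot be told apart. Summed marrow stroma markers were 663311 to 812775 in graft BM-MSC, 830214 to 1130910 in BM-MSC and 4505 to 8842 in P-SSC libraries, and summed periosteum markers were 164006 to 339871 in P-SSC and at most 9028 elsewhere, so each group held the markers of its label. Of 5 endothelial markers, Cdh5, Emcn and Tek were in the table. They summed to 3269 to 6871 in P-SSC, 24.3 to 82.5 in BM-MSC and 0 in graft libraries. The P-SSC sum was nearly all Tek (6869, 4820 and 3254), with Cdh5 at 2.08, 58.6 and 14.5 and Emcn at 0. Emcn was at 24.3 to 81.5 in BM-MSC, where Cdh5 was at 0. Other marker sums also differed between P-SSC and BM-MSC: macrophage markers summed to 455 to 2632 and 4576 to 16704, red cell markers to 202 to 1407 and 58706 to 205924, and muscle markers to 242 to 1257 and 0. In the graft these sums were 1446 to 13299, 1483 to 27755 and 0 to 1.69. Most of the macrophage sum was Lyz2 in every library. Lyz2 was at 385 to 2191 in P-SSC, 3329 to 16123 in BM-MSC and 1373 to 12846 in the graft, where Adgre1 was at 0. The part of all these markers in the results below was not tested, and neutrophil markers are given beside the genes they moved with. In these bulk libraries fewer cells of a type and less RNA per cell cannot be told apart.

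At steady state, P-SSCs and BM-MSCs expressed different sets of metalloproteinases. P-SSCs had more of the gelatinase Mmp2, the stromelysin Mmp3, Timp2, Timp3, Adamts5, Adamts16 and 4 of the 5 Adamtsl genes, and BM-MSCs had more of the collagenases Mmp13 and Mmp8 and the gelatinase Mmp9. Of the 51 members that passed a filter on low values (mean of at least 10), 20 differed (limma, Benjamini-Hochberg adjusted p under 0.05), with 14 higher and 6 lower in P-SSC. This is 39.2% of the members, beside 9.15% of all 13644 genes tested (4.57% higher and 4.58% lower). The median log2 change of the members was 0.84, against 0.00 over all genes. By subfamily, 7 of 15 Mmp, 3 of 13 Adam, 4 of 14 Adamts, 4 of 5 Adamtsl and 2 of 4 Timp genes were called. When any of the libraries BM-MSC replicate 2+4, BM-MSC replicate 3 or P-SSC replicate 1 was left out, 12, 13 and 13 members were called, and 12 of the 20 were called whichever library was left out. With library type as a covariate the calls of Mmp8, Mmp25, Adam22, Adam33 and Adamtsl5 were lost (adjusted p 0.0667 to 0.105). With edgeR on the recovered reads those of Mmp25, Mmp27, Adam22, Adam28, Adam33, Adamts6, Adamts9 and Adamtsl1 were lost (adjusted p 0.0502 to 0.541).

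Graft BM-MSCs differed from P-SSCs in 21 of the 51 members, 6 higher and 15 lower, which is 41.2% beside 18.1% of all genes (6.08% higher and 12% lower). The median log2 change was -0.80 in the members and -0.47 over all genes. With GC correction, which moved the median of all genes to 0.28, 10 members were higher and 14 lower. With quantile normalization, which moved it to -0.02, 8 were higher and 12 lower. With library type as a covariate 3 members were higher and 12 lower, and 13 of the 21 calls were kept. Those of Mmp8, Adam12, Adamts2, Adamts3, Adamts5, Adamts9, Adamtsl1 and Adamtsl5 were lost (adjusted p 0.0502 to 0.761), and edgeR lost those of Adam12, Adam22, Adamts2, Adamts3 and Adamts6 (adjusted p 0.0557 to 0.419). The 16 members called whichever library was left out included Mmp13, Mmp9, Mmp2, Mmp3, Mmp27, Timp3, Adamts5, Adamts16 and the Adamtsl genes 1, 2, 4 and 5.

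Graft BM-MSCs differed from steady-state BM-MSCs in 4 of the 51 members, which is 7.84% beside 7.67% of all genes (2.61% higher and 5.06% lower), a share near the background. Mmp14 and Timp2 were higher and Adam28 and Mmp15 lower in the graft. The median log2 change was -0.73 in the members and -0.53 over all genes. With GC correction, which moved the median of all genes to 0.24, 5 members were higher and 2 lower. With quantile normalization, which moved it to -0.17, 2 were higher and 0 lower. Adam28 alone was called whichever library was left out. edgeR on the recovered reads and limma with library type as a covariate each called 0 members, with 12 and 5 at an unadjusted p under 0.05, and DESeq2 called 5. The comparisons share libraries pairwise, so their calls are not independent of each other. In all, 13 members were higher in P-SSC than in BM-MSC and lower in the graft than in P-SSC. The opposite pair of calls was found for 4 members, and 27 had neither call. These pairs were not counted over all genes, so no background share can be set beside them.

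**Figure D1:**
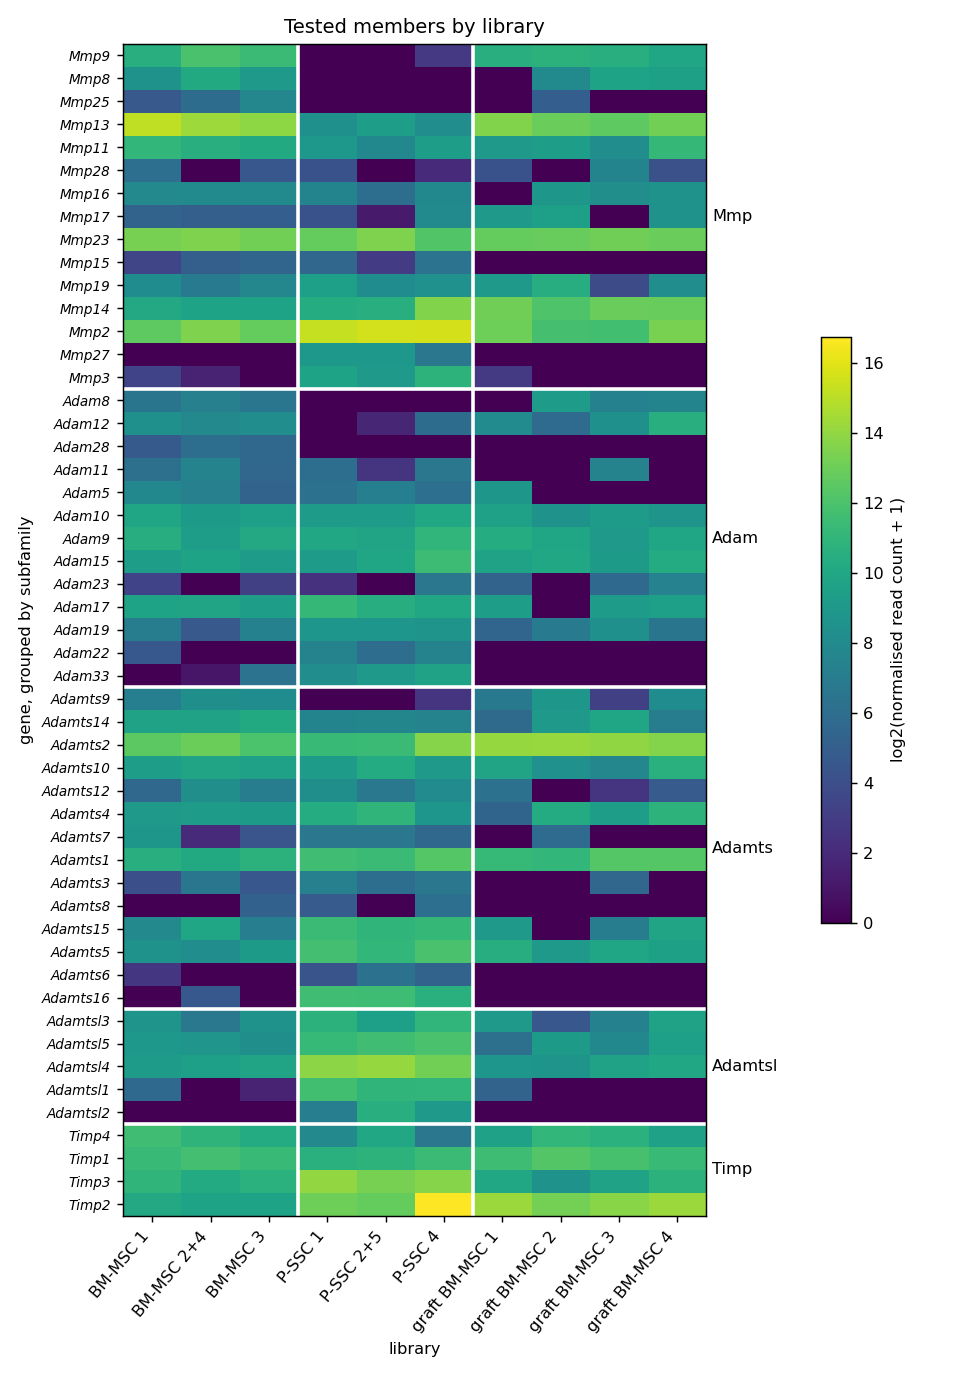
Heat map of the 51 tested members (rows, grouped by subfamily and ordered within it by the difference between P-SSC and BM-MSC) in the 10 libraries (columns), as log2(normalised read count + 1), from 0 (dark) upward. Most of the rows at the bottom of each block are bright in the 3 P-SSC libraries and darker in both marrow groups, and 11 members of the 55 were at 0 in all 4 graft libraries.

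**Figure D2:**
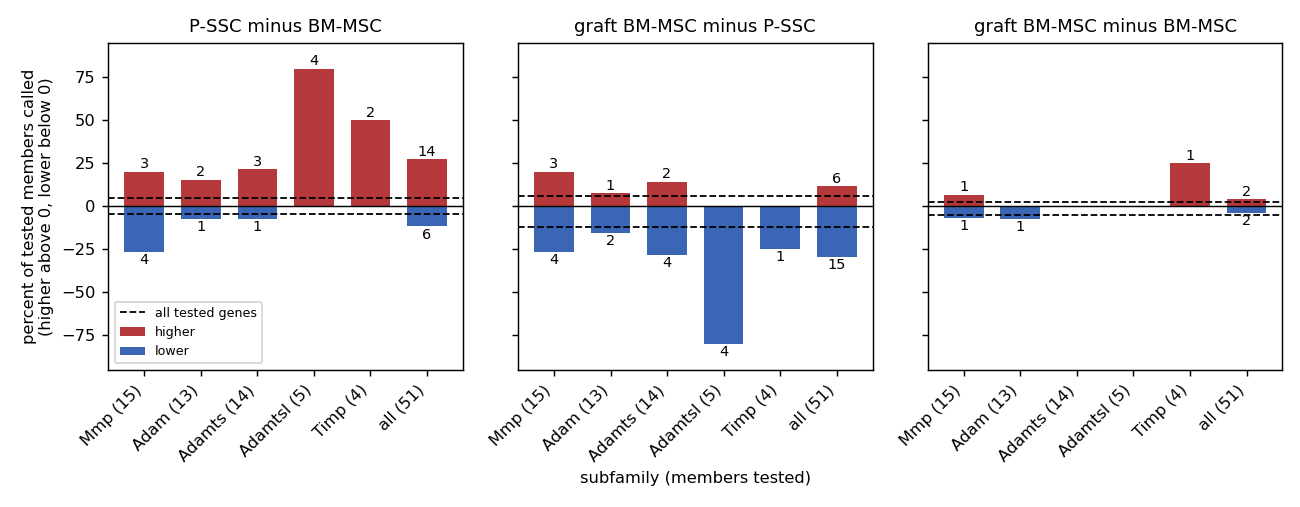
Percent of tested members called higher (above 0) or lower (below 0) in each comparison by subfamily, with the number of members on the bars and the number tested in parentheses; dashed lines give the percent of all 13644 tested genes. 4 of 5 Adamtsl genes were higher in P-SSC than in BM-MSC and 4 of 5 lower in graft BM-MSC than in P-SSC, and graft against BM-MSC gave 4 calls in all.

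Among the collagenases, Mmp13 marked the marrow. Mmp13, which cleaves fibrillar collagen and is made by osteoblast-lineage cells and hypertrophic cartilage, was counted at 35474, 20199.9 and 14976 normalised reads in BM-MSC, at 339, 656 and 289.8 in P-SSC and at 12167, 7864, 6277 and 9162 in graft BM-MSC libraries. No P-SSC library came near a marrow library, and the graft libraries lay between the other groups without overlap with either. The mean was 23549.7 ± 10652 in BM-MSC (SD, n = 3), 428 ± 199 in P-SSC (SD, n = 3) and 8868 ± 2496 in graft BM-MSC (SD, n = 4). The log2 value, taken after adding 1, fell by 5.78 from BM-MSC to P-SSC (SE 0.40, adjusted p = 1.39e-05), and was higher by 4.42 in the graft than in P-SSC (SE 0.37, adjusted p = 4.21e-05). The graft mean was 0.377 of the BM-MSC mean, a log2 change of -1.36 (SE 0.37) with an adjusted p of 0.0535, which missed the threshold. This change passed without P-SSC replicate 2+5 (adjusted p = 0.0384) or P-SSC replicate 4 (adjusted p = 0.0453). DESeq2 also called it (-1.41, adjusted p = 0.0101), as did limma when 5 was added in place of 1 (adjusted p = 0.0474). The fits with edgeR and with library type as a covariate did not. Summed osteoblast markers, given for comparison, were 197575 to 233421 in BM-MSC, 46467 to 66630 in graft BM-MSC and 4215 to 18042 in P-SSC libraries. Among them, Bglap overlapped between P-SSC (2518 to 14354) and the graft (4013 to 29627). Summed chondrocyte markers were 33075 to 71728 in BM-MSC, 656 to 3884 in the graft and 200 to 1693 in P-SSC. Sox9 alone went the other way between the marrow groups, at 23.2 to 65.8 in BM-MSC and 114 to 933 in the graft. Acan, Col9a1, Matn1 and Matn3 were at 0 in every graft library. The part of these markers in the Mmp13 difference was not tested.

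Mmp8 and Mmp9 were also marrow genes, and both are known in neutrophil granules. Mmp9, a gelatinase, was counted at 1531, 3877 and 2666 in BM-MSC, at 0, 0 and 5.82 in P-SSC and at 1541, 1697, 1542 and 979 in graft libraries. The marrow groups overlapped each other and stood far above every P-SSC library. The log2 change was -10.37 (SE 0.80, adjusted p = 3.02e-05) for P-SSC minus BM-MSC and 9.54 (SE 0.75, adjusted p = 2.57e-05) for graft minus P-SSC. Mmp8, a collagenase, was at 375, 1151 and 518 in BM-MSC, at 0 in every P-SSC library and at 0, 262, 843 and 736 in the graft. Graft replicate 1 thus had none, while the other graft libraries fell in or near the BM-MSC range. The Mmp8 mean of P-SSC was at least 208-fold lower than that of BM-MSC, set against a floor of 3 reads per library (adjusted p = 0.0268), and that of the graft at least 140.3-fold higher than that of P-SSC (adjusted p = 0.0483). Neither Mmp8 call was firm: the first was lost when any of the BM-MSC or P-SSC libraries was left out (adjusted p 0.0750 to 0.108) and the second with any library except graft replicate 1 (adjusted p 0.0757 to 0.134).

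The summed level of 9 neutrophil markers was 30568 to 94862 in BM-MSC, 5753 to 115911 in graft BM-MSC and 33.9 to 287 in P-SSC libraries, so it moved with Mmp8 and Mmp9 across the groups. Mpo was at 0 in every graft and P-SSC library and Retnlg in every P-SSC library. Within the graft the neutrophil sum differed by 20.1-fold between libraries and Mmp9 by 1.73-fold. In BM-MSC these folds were 3.10 and 2.53, and that of Mmp8 was 3.07. Mmp8 was at 0 in the graft library with the lowest neutrophil sum (5753, replicate 1) and highest in the one with the highest (115911, replicate 3), while replicate 4, with a sum of 7636, had 736. Mmp25, a membrane-anchored MMP of leukocytes, was at 25.1, 60.1 and 212 in BM-MSC, at 0 in all P-SSC libraries and at 0, 31.2, 0 and 0 in the graft. It was at least 30.2-fold lower in P-SSC than in BM-MSC (adjusted p = 0.0259), a call lost without BM-MSC replicate 2+4 or 3 or any of the P-SSC libraries (adjusted p 0.0660 to 0.0933). Ptprc, which encodes the CD45 used to exclude blood cells in the sort, was at 16.7 to 78.0 in BM-MSC, at 0 to 196 in the graft and at 0 in P-SSC. The part of residual leukocyte RNA in these 3 Mmp genes was not tested.

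Mmp2, a gelatinase secreted by fibroblasts and activated at the cell surface by Mmp14 with Timp2, was the leading periosteal member. It was counted at 39911, 50103 and 52825 in P-SSC, at 6231, 11524 and 7069 in BM-MSC and at 8374, 3501, 3324 and 10600.4 in graft libraries. All P-SSC libraries were above all marrow libraries, and the marrow groups overlapped. The P-SSC mean, 47613 ± 6808 (SD, n = 3), was 5.75 times the BM-MSC mean (log2 change 2.57, SE 0.44, adjusted p = 0.00347) and 7.38 times the graft mean (log2 change of graft minus P-SSC -3.06, SE 0.41, adjusted p = 0.000557). The graft and BM-MSC differed by -0.49 (SE 0.41, adjusted p = 0.481). Per kb of exon, Mmp2 had the highest mean of all members in P-SSC (14124 ± 2019, SD, n = 3). Timp2, at 10712 ± 15111 (SD, n = 3), could not be placed against it.

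Mmp3, a stromelysin, and Mmp27, both of the chromosome 9 group, were at or near 0 in marrow. Mmp3, which cleaves proteoglycans and activates other MMP precursors, was counted at 839, 539 and 1806 in P-SSC, at 9.40, 2.11 and 0 in BM-MSC and at 6.21, 0, 0 and 0 in the graft. The P-SSC mean was 277 times that of BM-MSC (log2 change 8.20, SE 1.38, adjusted p = 0.00295) and the log2 change of graft minus P-SSC was -9.16 (SE 1.29, adjusted p = 0.000714), with all graft reads of Mmp3 in replicate 1. Mmp27 was at 489, 494 and 97.9 in P-SSC and at 0 in all 7 marrow libraries. It was at least 117-fold higher in P-SSC than in BM-MSC (adjusted p = 0.0004) and at least 147-fold lower in the graft than in P-SSC (adjusted p = 0.000187). Mmp10, another stromelysin, was at 50.9 in graft replicate 4 and at 0 in the other libraries, and was not tested. Along the chromosome 9 stretch, Mmp13 and Mmp8 were thus the marrow genes and Mmp3 and Mmp27 the periosteal ones, with Mmp8 and Mmp27 lying next to each other.

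The membrane-type enzymes were led by Mmp14, which cleaves collagen at the cell surface and activates Mmp2. Mmp14 was counted at 1089, 850.0 and 842 in BM-MSC, at 1326, 1459 and 12175 in P-SSC and at 8931, 4549, 7665 and 7558 in graft libraries. P-SSC replicate 4 lay above every graft library, while the other P-SSC libraries were little above BM-MSC. The graft mean of 7176 ± 1859 (SD, n = 4) was 7.74 times the BM-MSC mean of 927 ± 140.4 (SD, n = 3), a log2 change of 2.92 (SE 0.66, adjusted p = 0.0259). This call was lost without any of the BM-MSC libraries or graft replicates 1, 3 or 4 (adjusted p 0.0525 to 0.0975). With library type as a covariate the change was -0.21 (SE 0.46, adjusted p = 0.921), an estimate that rests on P-SSC replicate 4. Without P-SSC replicate 4, Mmp14 was higher in the graft than in P-SSC by 2.32 on the log2 scale (adjusted p = 0.000594), against 1.28 (SE 0.66, adjusted p = 0.206) with it. Mmp15, another membrane-type MMP, was at 10.4, 32.7 and 42.4 in BM-MSC, at 45.7, 6.37 and 81.4 in P-SSC and at 0 in all graft libraries. It was at least 11.6-fold lower in the graft than in BM-MSC (adjusted p = 0.031) and at least 18.1-fold lower than in P-SSC (adjusted p = 0.011). The first call was lost without graft replicate 1 or any of the BM-MSC libraries (adjusted p 0.0516 to 0.103).

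Mmp23, a membrane-bound MMP with an unusual domain order, was high and nearly level across the groups. It was counted at 10119.8, 11533 and 9399 in BM-MSC, at 7194, 11879 and 4776 in P-SSC and at 7123, 7272, 8698 and 7840.3 in graft libraries. The log2 changes between the groups were -0.48 to 0.06, and 0 of these comparisons passed the test (adjusted p 0.355 to 0.907). The other 5 Mmp genes tested, Mmp11, Mmp16, Mmp17, Mmp19 and Mmp28, passed the test in no comparison. Of these, Mmp11, the stromelysin-like enzyme of stroma around tumours, had group means of 1611 ± 497 in BM-MSC, 457 ± 222 in P-SSC and 921 ± 888 in graft BM-MSC (SD, n = 3, 3 and 4), and the adjusted p of P-SSC minus BM-MSC was 0.137.

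**Figure D3:**
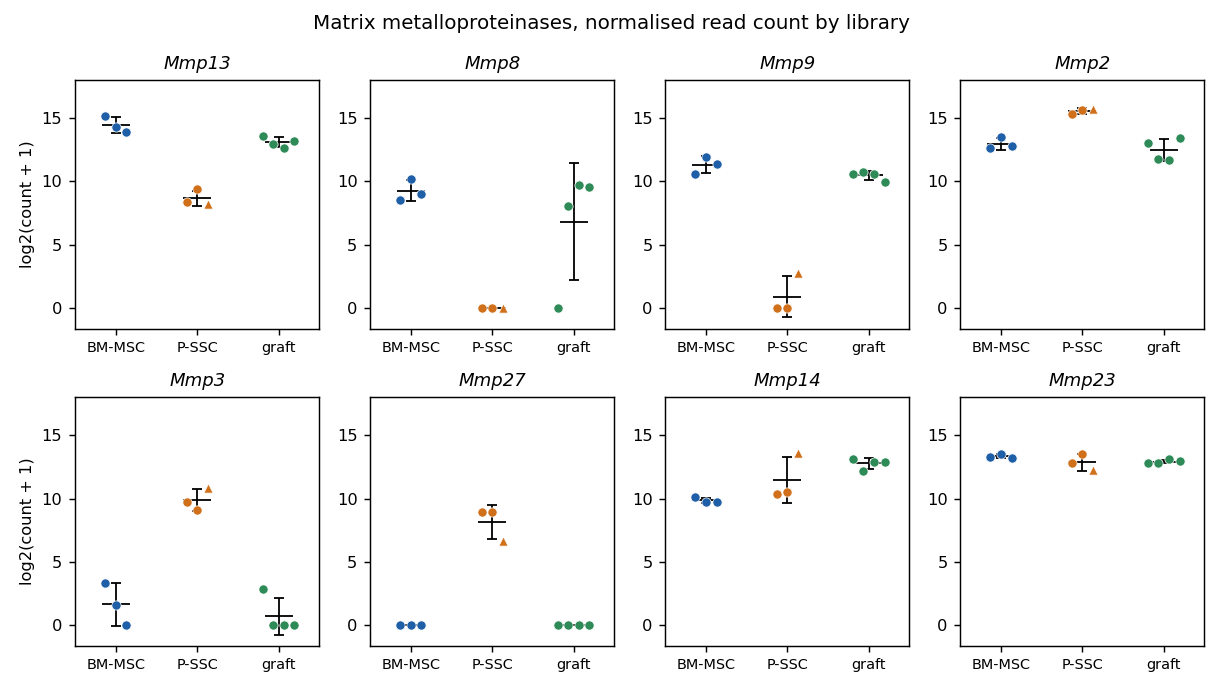
8 Mmp genes as log2(normalised read count + 1) by library, with BM-MSC in blue, P-SSC in orange and graft BM-MSC in green; the triangle is P-SSC replicate 4, and bars give the mean and SD of the log2 values. Mmp13, Mmp8 and Mmp9 are low in P-SSC, Mmp2, Mmp3 and Mmp27 are high in P-SSC, Mmp14 is high in the graft and in P-SSC replicate 4, and Mmp23 is at 4776 to 11879 in every library.

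The 4 inhibitors each had a pattern of their own. Timp3, which binds to the matrix and also inhibits ADAM and ADAMTS enzymes, followed Mmp2: it was counted at 16474, 10262 and 13189 in P-SSC, at 2000.0, 1198 and 1668 in BM-MSC and at 1025, 382, 811 and 1765 in graft libraries. The P-SSC libraries were all above the marrow libraries, which overlapped. The P-SSC mean of Timp3 was 8.21 times that of BM-MSC (log2 change 3.04, SE 0.48, adjusted p = 0.00196) and 13.4 times that of the graft (log2 change of graft minus P-SSC -3.91, SE 0.45, adjusted p = 0.000218). Its exons share 1733 bases with those of Syn3 on the other strand. Syn3 is not among the genes of the table.

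Timp2, which both inhibits MMPs and takes part in Mmp2 activation, was low in BM-MSC and high in the other groups. It was counted at 1092, 856 and 827 in BM-MSC, at 8423, 7072 and 109711 in P-SSC and at 19109.9, 9488, 13740.3 and 19387 in graft libraries. P-SSC replicate 4 had 14.2 times the mean of the other P-SSC libraries, and every graft library was above those other P-SSC libraries. Timp2 was higher in P-SSC than in BM-MSC by 4.35 on the log2 scale (SE 0.84, adjusted p = 0.00707) and higher in the graft than in BM-MSC by 4.01 (SE 0.79, adjusted p = 0.014). The second call was lost without BM-MSC replicate 2+4 or 3 (adjusted p 0.0602 and 0.0606), and with library type as a covariate the change was 0.18 (SE 0.50, adjusted p = 0.936). Graft minus P-SSC was -0.33 (SE 0.79, adjusted p = 0.796) with all libraries and -2.89 with the covariate (adjusted p = 0.00279). Of the 36 members with a mean of at least 100 in P-SSC replicates 1 and 2+5, 4 were over 3-fold higher in P-SSC replicate 4. All genes were not counted by this rule, so no background share can be set beside it. The 4 members were Timp2, Mmp14 (8.74-fold), Adamts2 (5.20-fold) and Adam15 (3.60-fold). Timp4, Mmp27 and Adamts4 went the other way, at 0.160, 0.199 and 0.275 times the mean of the other P-SSC libraries. Within P-SSC, library type differs in replicate 4 alone, so it cannot be told apart from that replicate. The part of library type in the graft values was not tested beyond the covariate fit.

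Timp1, the widely induced soluble inhibitor, was counted at 2565, 3391 and 2616 in BM-MSC, at 1592, 1838 and 2749 in P-SSC and at 2972, 5001, 3773 and 2532 in the graft. The groups overlapped, and no comparison passed the test (adjusted p 0.0893 to 0.565). The graft was called higher than P-SSC without P-SSC replicate 4 (log2 change 1.01, adjusted p = 0.0344), with GC correction (1.73, adjusted p = 0.0170) and with quantile normalization (1.09, adjusted p = 0.0272), against 0.78 (SE 0.29) otherwise. Timp4, the least widely expressed inhibitor, was at 3059, 1887 and 1282 in BM-MSC, at 229.6, 995 and 97.9 in P-SSC and at 751, 2128, 1669 and 754 in the graft. It was lower in every P-SSC than in every BM-MSC library, with a log2 change of -2.78 (SE 0.77) and an adjusted p of 0.0504. That p was 0.00543 without P-SSC replicate 2+5. The 4 Timp genes together took 0.0346% to 0.0482% of all reads in BM-MSC, 0.0871% to 0.670% in P-SSC and 0.115% to 0.169% in graft libraries. Per kb of exon, Timp1 led in the graft (4019.9 ± 1220.2, SD, n = 4), with Timp2 at 3961 ± 1216 (SD, n = 4), a difference smaller than their SDs.

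**Figure D4:**
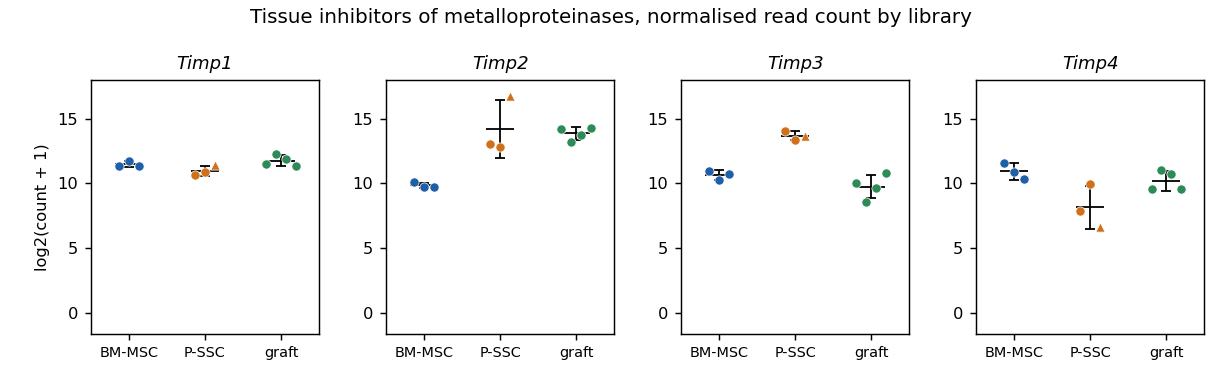
The 4 Timp genes as log2(normalised read count + 1) by library, drawn as in the plot of the Mmp genes (triangle, P-SSC replicate 4; bars, mean and SD of log2 values). Timp3 is high in P-SSC alone, Timp2 is at 827 to 1092 in BM-MSC and at 7072 or more in every other library, and Timp1 overlaps between the groups.

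The ADAMTS enzymes that cut proteoglycans did not move as a block. Adamts5, the main aggrecan-cleaving enzyme of mouse cartilage, was counted at 3459.9, 2194 and 3992 in P-SSC, at 367, 297 and 554 in BM-MSC and at 1365, 508, 979.9 and 730.2 in graft libraries. The P-SSC libraries stood above all others, and the graft libraries overlapped BM-MSC with 3 of 4 above it. Its P-SSC mean was 7.92 times that of BM-MSC (log2 change 2.99, SE 0.43, adjusted p = 0.00115) and 3.59 times that of the graft (log2 change of graft minus P-SSC -1.89, SE 0.40, adjusted p = 0.00843). Adamts1, an enzyme that cuts versican and aggrecan, had means of 1465 ± 276 in BM-MSC, 3659.9 ± 1357 in P-SSC and 3682 ± 1667 in the graft (SD, n = 3, 3 and 4). Every P-SSC and graft library was above every BM-MSC library, with adjusted p of 0.0907 and 0.0835. Adamts4, a second aggrecan-cutting enzyme, was at 523 to 597 in BM-MSC, at 451 to 1957 in P-SSC and at 40.7 to 1815 in the graft, and passed the test in no comparison (adjusted p 0.533 to 0.954). Adamts9, which cuts versican, was at 150.4, 321 and 286 in BM-MSC, at 0, 0 and 4.85 in P-SSC and at 107, 455, 8.06 and 279.6 in the graft. Its log2 change was -7.06 for P-SSC minus BM-MSC (SE 1.58, adjusted p = 0.0167), and it was higher in the graft than in P-SSC by 5.88 (SE 1.48, adjusted p = 0.0198). The first call was lost without BM-MSC replicate 2+4 or 3 or P-SSC replicate 1 or 2+5 (adjusted p 0.0615 to 0.0713) and the second without P-SSC replicate 1 or 2+5 (adjusted p 0.0738 to 0.0804), with only those groups fitted (adjusted p = 0.0691) and with library type as a covariate (4.18, adjusted p = 0.352).

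Adamts2, the enzyme that removes the amino-terminal propeptide of procollagen I, was highest in the graft. It was counted at 17754, 18406, 16187 and 12717 in graft libraries, at 6014, 8246 and 4094 in BM-MSC and at 2453, 2704 and 13419 in P-SSC. The graft libraries were all above BM-MSC, and P-SSC replicate 4 fell inside the graft range. Adamts2 was higher in the graft than in P-SSC by 1.85 in log2 value (SE 0.52, adjusted p = 0.0326). The call was lost without graft replicate 1, 2 or 3, BM-MSC replicate 1 or P-SSC replicate 1 or 2+5 (adjusted p 0.0552 to 0.154), and with library type as a covariate the change was 0.26 (SE 0.35, adjusted p = 0.761). The graft and BM-MSC means differed by 2.66 times (log2 change 1.45, SE 0.52, adjusted p = 0.116). Without P-SSC replicate 4 this difference had an adjusted p of 0.00621.

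Adamts16 had the largest change from BM-MSC to P-SSC among the members higher there, on the log2(value + 1) scale. Plain ratios of Adamtsl2 and Mmp27 have no upper limit, because BM-MSC was at 0. Adamts16 was counted at 3096, 2977 and 1580.0 in P-SSC, at 0, 23.2 and 0 in BM-MSC and at 0 in all graft libraries. Its log2 value was higher in P-SSC than in BM-MSC by 9.72 (SE 1.41, adjusted p = 0.00117), and its graft mean was at least 1038-fold lower than that of P-SSC (adjusted p = 0.000247). Adamts6 was also at 0 in the graft, with 19.7, 73.9 and 39.7 in P-SSC, and the remaining call among the Adamts genes was Adamts3, lower in the graft than in P-SSC (adjusted p = 0.0408). The Adamts6 call of P-SSC minus BM-MSC (adjusted p = 0.0164) was lost without BM-MSC replicate 2+4 or 3 (adjusted p 0.0734 and 0.0747). The Adamts3 call was lost when any library except graft replicate 3 was left out (adjusted p 0.0535 to 0.144). These last genes were named after their values were seen.

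Of the 5 Adamtsl genes, 4 were called higher in P-SSC than in BM-MSC and 4 lower in the graft than in P-SSC. Adamtsl4, a microfibril-associated protein, was counted at 14318, 17769 and 9191 in P-SSC, at 614, 684 and 876 in BM-MSC and at 438, 399.7, 802 and 1007 in graft libraries. Every P-SSC library was several times above every marrow library, and the marrow groups overlapped. The P-SSC mean was 19.0 times that of BM-MSC (log2 change 4.21, SE 0.41, adjusted p = 0.000127) and 20.8 times that of the graft (log2 change of graft minus P-SSC -4.43, SE 0.38, adjusted p = 4.55e-05). Adamtsl2, which binds microfibrils and the latent TGF-beta binding protein, was at 140.2, 1471 and 516 in P-SSC and at 0 in all marrow libraries of both kinds. It was at least 229.8-fold higher in P-SSC than in BM-MSC (adjusted p = 0.000431) and at least 288-fold lower in the graft than in P-SSC (adjusted p = 0.000197). Adamtsl1 was at 3300.0, 1994 and 2040.5 in P-SSC, at 51.2, 0 and 1.97 in BM-MSC and at 38.4, 0, 0 and 0 in the graft, so that even the highest marrow library was far below the lowest P-SSC library. Its log2 change was 8.79 (SE 1.89, adjusted p = 0.0131) for P-SSC minus BM-MSC and -9.89 (SE 1.77, adjusted p = 0.00306) for graft minus P-SSC. The first of these was lost without BM-MSC replicate 2+4 or 3 or P-SSC replicate 1 (adjusted p 0.0563 to 0.0621).

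Adamtsl5 was at 2344, 3085 and 4007 in P-SSC, at 478, 430.3 and 317 in BM-MSC and at 71.2, 546, 226 and 689 in the graft. Its P-SSC mean was 7.70 times that of BM-MSC (adjusted p = 0.0307) and 8.21 times that of the graft (adjusted p = 0.00564). The first call was lost when any of the BM-MSC or P-SSC libraries was left out (adjusted p 0.0719 to 0.119), although the groups did not overlap. Adamtsl3 was at 1696, 711 and 2123 in P-SSC, at 411, 102 and 391 in BM-MSC and at 509.6, 21.9, 160.1 and 804 in the graft, and passed the test in no comparison (adjusted p 0.108 to 0.866). The median log2 change of the 5 genes was 4.21 for P-SSC minus BM-MSC and -4.43 for graft minus P-SSC; under quantile normalization, GC correction and the library type covariate these medians were 3.87, 3.88 and 4.47, and -4.16, -4.01 and -3.90. Under that covariate 3 of the 5 genes were called for P-SSC minus BM-MSC and 2 for graft minus P-SSC, where Adamtsl1 and Adamtsl5 were lost (adjusted p 0.0727 and 0.0677). The 5 genes took 0.0953% to 0.108% of the reads in P-SSC, 0.00595% to 0.00859% in BM-MSC and 0.00657% to 0.0173% in graft libraries.

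**Figure D5:**
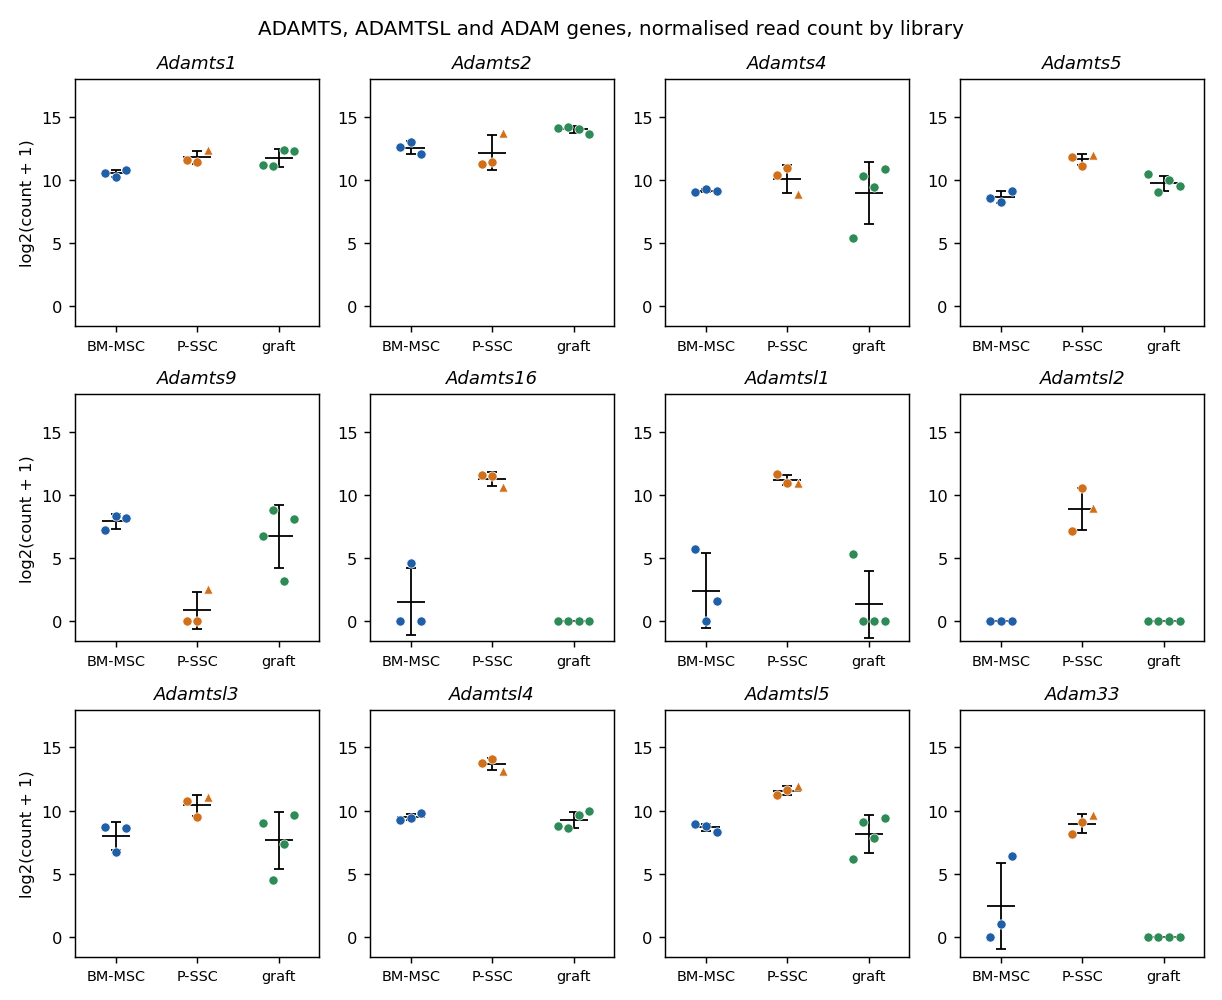
12 Adamts, Adamtsl and Adam genes as log2(normalised read count + 1) by library, drawn as in the plot of the Mmp genes (triangle, P-SSC replicate 4; bars, mean and SD of log2 values). The 5 Adamtsl genes, Adamts5, Adamts16 and Adam33 are highest in P-SSC, Adamts9 is lowest there, and Adamts2 is at 12717 or more in the 4 graft libraries and in P-SSC replicate 4.

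Among the ADAM sheddases of broad expression, Adam9, Adam10 and Adam15 passed the test in no comparison. Adam10, which releases Notch, cadherin and chemokine ectodomains, was counted at 973, 565 and 701 in BM-MSC, at 620.1, 597 and 1058 in P-SSC and at 768, 374, 617 and 403 in the graft, with adjusted p of 0.421 to 1 over the comparisons. Adam9 and Adam15 had adjusted p of 0.48 to 0.929 and 0.574 to 0.663. Adam17, which releases TNF and EGF receptor ligands, was at 841, 890.1 and 633 in BM-MSC, at 2277, 1383 and 993 in P-SSC and at 656, 0, 609 and 697 in graft libraries. Graft replicate 2 was at 0 where every other library had 609 or more. Every P-SSC library was above every BM-MSC and graft library. With graft replicate 2 no Adam17 comparison passed the test (adjusted p 0.245 to 0.98), and without it the log2 change of graft minus P-SSC was -1.16 (adjusted p = 0.0426). Exons of Adam17 share 311 bases with those of Iah1 on the other strand.

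Adam33, an ADAM of mesenchymal cells, was at 289, 538 and 796 in P-SSC, at 0, 1.05 and 80.9 in BM-MSC and at 0 in all graft libraries. It was at least 219.9-fold lower in the graft than in P-SSC (adjusted p = 0.00198), and higher in P-SSC than in BM-MSC by 6.50 in log2 value (SE 1.59, adjusted p = 0.0275). The second call was lost without BM-MSC replicate 1 or 2+4 or any of the P-SSC libraries (adjusted p 0.0563 to 0.121). Adam28, known from lymphocytes, was at 26.1, 65.4 and 48.3 in BM-MSC and at 0 in every P-SSC and graft library. It was at least 14.2-fold lower in P-SSC (adjusted p = 0.000866) and at least 19.0-fold lower in the graft (adjusted p = 0.0023) than in BM-MSC. The first call was lost with edgeR and DESeq2 (adjusted p 0.150 and 0.229). The second was lost with edgeR (adjusted p = 0.0951), DESeq2 (adjusted p = 0.109), quantile normalization (log2 change -3.01, adjusted p = 0.0753) and library type as a covariate (adjusted p = 0.102). Adam12, which is made by growing muscle and bone cells, was at 336, 237 and 299.8 in BM-MSC, at 0, 2.55 and 59.1 in P-SSC and at 264, 57.3, 342 and 1482 in graft libraries. Its log2 value was higher in the graft than in P-SSC by 5.64 (SE 1.46, adjusted p = 0.0228), with a ratio of means of 26.1. This call was lost without graft replicate 4 or P-SSC replicate 1 or 2+5 (adjusted p 0.0558 to 0.0941). With library type as a covariate the change of graft minus P-SSC was 2.31 (SE 1.64, adjusted p = 0.544). P-SSC minus BM-MSC was -5.60 for Adam12 (SE 1.56, adjusted p = 0.0515), without overlap between the libraries. That comparison passed in settings that included GC correction (adjusted p = 0.0308), quantile normalization (adjusted p = 0.00662) and the library type covariate (-7.26, adjusted p = 0.00996). It did not pass with edgeR or DESeq2. Adam22, named after its values were seen, was called higher in P-SSC than in BM-MSC (adjusted p = 0.0256) and lower in the graft than in P-SSC (adjusted p = 0.00286). The first of these calls was lost without BM-MSC replicate 2+4 or 3 or P-SSC replicate 1 or 4 (adjusted p 0.0579 to 0.118). Adam8, also known from neutrophils, was at 88.8 to 153 in BM-MSC, at 0 in P-SSC and at 0 to 599 in the graft, with adjusted p of 0.0565 to 0.846. Graft minus P-SSC was called for Adam8 with edgeR (adjusted p = 0.0414), DESeq2, quantile normalization (0.0265), GC correction (0.0303), a mean of at least 100 (0.0442) and without graft replicate 1 (0.00104), and P-SSC minus BM-MSC with DESeq2 (0.000528), quantile normalization (0.0343), only those groups fitted (0.00156) and without graft replicate 1 (0.00288).

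Per kb of exon, the order of levels differed between the groups. Mmp13 led in BM-MSC (8810.2 ± 3985, SD, n = 3), above Mmp23 (4423 ± 464) and Timp1 (3217 ± 521). In P-SSC, Mmp2 had the highest mean, ahead of Mmp23 (3397 ± 1543) and Adamtsl4 (3278 ± 1028), which differed by less than their SDs. Timp2 had a mean of 10712 ± 15111 there and could not be placed, since it was at 1989 in the mean of P-SSC replicates 1 and 2+5. In the graft, Timp1, Timp2, Mmp13 (3318 ± 934) and Mmp23 (3305 ± 305) had close levels, again within their SDs (n = 4). All members together took 0.318% to 0.461% of the reads in BM-MSC, 0.571% to 1.35% in P-SSC and 0.497% to 0.662% in graft libraries. 11 members were at 0 in every graft library, 3 in every BM-MSC and 6 in every P-SSC library. Exons of 13 members overlap those of another annotated gene, in each case on the opposite strand, and whether counting used strand is not given in the sources used here.

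Genes that act on or with these enzymes showed larger and smaller changes. Of 20 activators and regulators tested, 2 were higher and 5 lower in P-SSC than in BM-MSC, 3 higher and 4 lower in the graft than in P-SSC, and 0 higher and 2 lower in the graft than in BM-MSC, with median log2 changes of 0.03, -1.65 and -0.96. Over all genes 9.15%, 18.1% and 7.67% were called in these comparisons, with medians of 0.00, -0.47 and -0.53, beside which this list and the lists below are to be read. Plau, the urokinase that activates plasmin, had a mean of 548 ± 261 in P-SSC (SD, n = 3) and 0 in BM-MSC, and A2m, the broad protease trap alpha-2-macroglobulin, was at 5132 ± 493 in BM-MSC (SD, n = 3) and at 0 in the graft (adjusted p = 0.00123). Serpine2, an inhibitor of plasminogen activators and thrombin, had means of 203580.0 ± 35523 in BM-MSC, 12371 ± 896 in P-SSC and 106578 ± 32561 in the graft (SD, n = 3, 3 and 4). All 3 Serpine2 comparisons passed the test (adjusted p 8.83e-06 to 0.0340). Of 15 other extracellular proteases tested, 2 were higher and 2 lower in P-SSC than in BM-MSC and 3 higher and 3 lower in the graft than in P-SSC, with medians of 0.57 and 0.05. Between graft and BM-MSC, limma and edgeR called 0 of them (4 and 3 at an unadjusted p under 0.05) and DESeq2 called 1. Dpp4, a membrane peptidase, was at 8256 ± 1733 in P-SSC (SD, n = 3) and at 0 in every BM-MSC library, and Mme, neprilysin, was at 3408 ± 1125 in BM-MSC, 125 ± 91.4 in P-SSC and 4049 ± 486 in the graft (SD, n = 3, 3 and 4).

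Among 14 matrix proteins that these enzymes cut, 3 were higher and 3 lower in P-SSC than in BM-MSC, 2 higher and 7 lower in the graft than in P-SSC, and 0 higher and 6 lower in the graft than in BM-MSC, with median log2 changes of -0.93, -1.74 and -1.76. Col1a1 was at 721718 ± 320456 in BM-MSC and 17109 ± 11325 in the graft (SD, n = 3 and 4; log2 change -5.48, SE 0.47, adjusted p = 0.000799), and the proteoglycan Acan was at 1256 ± 218 in BM-MSC and at 0 in the graft (adjusted p = 0.00182). Among 13 membrane proteins known to be shed, 2 were higher and 4 lower in P-SSC than in BM-MSC, 5 higher and 2 lower in the graft than in P-SSC, and 0 higher and 1 lower in the graft than in BM-MSC, with median log2 changes of 0.16, 0.86 and -0.41. For graft against BM-MSC this is a share near the 7.67% of all genes. Kitl, the stem cell factor whose membrane form can be shed, was at 5547 ± 1330 in BM-MSC, 61.5 ± 14.1 in P-SSC and 3322 ± 695 in the graft (SD, n = 3, 3 and 4), and was higher in the graft than in P-SSC by 5.73 in log2 value (SE 0.31, adjusted p = 2.18e-06). Vcam1, an adhesion receptor for blood cells, was at 40923 ± 10121, 1573 ± 797 and 36604 ± 6972 in the same groups. These lists share no gene with the 55 members.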

How the data were processed

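RNA of sorted mouse stromal cells was sequenced in 10 libraries. Per the submitters' processing notes the authors used FastQC 0.11.5, cutadapt 1.15, STAR 2.5, featureCounts of Subread 1.4.6 and DESeq2 1.26.0 with GRCm39, whereas the study's methods name GRCm38, so coordinates here are those of the annotation and not of the counting. The deposited values are a signal, gene read counts divided by a size factor per library by the authors, and 100% of them came back to whole reads (tolerance 0.01).

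Values were tested as log2(value + 1) with limma 3.58.1 in 1 fit over the 3 groups, on 13644 genes with a mean of at least 10 (1434 removed, of which 4 members: Adamts17, Adamts18, Adamts20 and Mmp10), with Benjamini-Hochberg adjustment over all of them. Adding 1 lowers the fold changes of low genes. The log2 changes are differences of mean log2 values, so with uneven libraries they can exceed the log2 ratio of the means. For Adam33 in P-SSC minus BM-MSC, a log2 change of 6.50 stood beside a ratio of means of 19.8. Folds against a group at 0 were set against 3 reads per library, which covers counting error only. p-values measure only the spread between these libraries. Alternatives were edgeR 4.0.16 and DESeq2 1.42.0 on the recovered reads (edgeR called 619, 1531 and 316 genes for P-SSC minus BM-MSC, graft minus P-SSC and graft minus BM-MSC, DESeq2 1515, 2908 and 1947), other pseudocounts (0.1 and 5) and filters, quantile normalization, GC correction, a library type covariate, the 2 groups alone, a replicate block, and each library left out. The scripts were tested on simulated data. Gene models were found for 15052 of 15078 genes (99.83%).

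Members and lists were chosen with earlier results of these data known. Named are the Timp genes, 11 genes fixed by role, the 6 largest rises and 6 largest falls called in each comparison, the 3 highest genes per kb in each subfamily, and up to 3 genes per list and comparison. 35 of the 55 members had a RefSeq promoter sequence.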

Additional observations from a re-analysis of the deposited data

Results flagged for a closer look

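Dixon's test at the 95% level, on log2(value + 1) in the 4 graft libraries, set 1 library apart for 11 of the 55 members. For 3 of them the other libraries were above 0. Adam17 was at 0 in graft replicate 2 and at 609 to 697 in the others, Mmp16 at 0 in graft replicate 1 and at 311 to 469 in the others, and Mmp17 at 0 in graft replicate 3 and at 373 to 684 in the others. For the remaining 8 the other 3 libraries were all at 0, where any value above 0 passes this test, so that the usual chance of about 1 in 20 does not apply to them. These were Mmp3 (6.21 in graft replicate 1), Adamtsl1 (38.4, replicate 1), Adam5 (461, replicate 1), Mmp25 (31.2, replicate 2), Adamts7 (55.7, replicate 2), Adam11 (181, replicate 3), Adamts3 (44.3, replicate 3) and Mmp10 (50.9, replicate 4).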

How the results depend on the processing

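For P-SSC minus BM-MSC, 20 members were called, 12 with edgeR, 12 without BM-MSC replicate 2+4 and 13 to 23 without any other library. For graft minus P-SSC, 21 were called and 16 to 22 when 1 library was left out. For graft minus BM-MSC, 4 were called, 7 with GC correction, 2 with a mean of at least 100, 2 with quantile normalization, 0 with edgeR, 0 with library type as a covariate and 1 to 6 when 1 library was left out. Under that covariate the Mmp14 change of graft minus BM-MSC was -0.21 instead of 2.92. The cause of these shifts was not tested. Some of these fits also held fewer genes or libraries. All other counts of members called, with the other tools, pseudocounts, filters and scalings and with only the 2 groups compared, were within 1.5 times the values given above.

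The labels give the groups shared replicate numbers, but libraries with the same number did not deviate together (correlations of -0.02 to 0.03). Where a pooled library such as 2+4 shares 1 of its numbers, correlations were -0.07 to 0.08. The largest was between BM-MSC replicate 2+4 and P-SSC replicate 2+5. These are deviations from means of few libraries, so they cannot show whether the numbers pair the libraries. With a replicate block 1, 5 and 0 members were called for P-SSC minus BM-MSC, graft minus P-SSC and graft minus BM-MSC, where the block leaves fewer degrees of freedom. Depth limits the low members: a call that rests on a group at 0 cannot be told from a level under 3 reads per library.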
